A study of Mus musculus with 6 samples.

Results

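The core oscillator and output genes of the circadian clock were examined in the corneal epithelium of *Prrx1-CreERT;Ptch1* f/f mice. The 10 genes were chosen by symbol from the 17784 genes in the expression table, and all 10 were expressed highly enough to be tested. They were *Arntl*, *Clock*, *Npas2*, *Cry1*, *Nr1d1*, *Nr1d2*, *Per2*, *Per3*, *Dbp* and *Tef*. Bulk RNA-seq had been performed on corneal epithelial cells of 3 samples from these mice (termed Ptch1Prrx1 here) and 3 samples from control mice. In the Ptch1Prrx1 mice, a tamoxifen-inducible Cre knocked in at *Prrx1* deletes the floxed Hedgehog receptor gene *Ptch1* in keratocytes and other ocular mesenchymal cells, and not by design in the epithelium that was sequenced. The labels give both groups an age of 10 weeks, 3 doses of tamoxifen and a treatment of 2 months, and they call the controls only ctrl or WT. The Cre line is also active in the corneal endothelium. The time of day of tissue collection, the sex of each sample and the number of mice behind each sample are not given in the sources used here. Since clock transcripts vary over the day, differences between these samples and differences in their collection time cannot be told apart, between groups or within them.

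The mammalian clock is a transcriptional feedback loop. ARNTL (also called BMAL1) pairs with CLOCK or its paralog NPAS2 and binds E-box sequences to activate the *Per*, *Cry* and *Nr1d* genes. PER and CRY proteins then inhibit that pair, and the REV-ERB proteins encoded by *Nr1d1* and *Nr1d2* repress *Arntl*, *Clock*, *Npas2* and *Cry1* through ROR elements. DBP and TEF are PAR bZIP transcription factors, which carry the rhythm to output genes through D-box sequences. Across the day, transcripts of *Arntl*, *Npas2* and, later, *Cry1* therefore peak in a different phase from those of *Nr1d1*, *Dbp*, *Tef* and *Per* genes. In the cornea, epithelial cell division and wound healing are known to follow a daily rhythm. Here *Arntl*, *Clock*, *Npas2* and *Cry1* are called the activator arm, and the other 6 genes the E-box arm, after what is known of them and not after the motif search, a grouping chosen with earlier results of these data known.

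The binding sequences of clock factors were looked for in the promoters. RefSeq windows of 300 bases, from 250 before to 50 after an annotated start site on GRCm38.p6, were present for 9 of the 10 genes, with 13 windows in all. They were searched on both strands for the E-box (CACGTG), the E'-box (CACGTT, which reads AACGTG on the other strand), the D-box (TTATGTAA or TTACGTAA), the ROR element (TAGGTCA or TGGGTCA) and the cAMP response element (TGACGTCA), motifs that do not overlap each other in these windows. A match to at least 1 motif was present for 5 genes. E-boxes lay 60 bases before the start of *Cry1*, and 127 and 138 bases before the start sites of *Tef*. An E-box was present in 7.15% of all 32851 windows. *Per3* carried 2 D-boxes, 205 and 158 bases before its start, whereas 1.06% of all windows held any. *Arntl* had a ROR element at position 31 after one of its start sites, a motif found in 6.45% of all windows. E'-boxes, found in 4.68% of windows, lay 79 bases before the start of *Cry1* and in the window of *Nr1d1*, the only one of the 13 windows whose last 30 bases were not found in a GENCODE transcript, so no distance is given for it. The cAMP response element, in 1.79% of all windows, had no match in the windows of these genes. The matched stretches of *Cry1*, *Tef*, *Per3* and *Arntl* are shown since they hold E-boxes, D-boxes and a ROR element in genes of both arms, with the 250 bases before the start site (30 bases around the element for *Arntl*), 5′ to 3′ on the strand of the gene, and the motifs in capitals.
*Cry1*, chr10:85185055-85185304, minus strand: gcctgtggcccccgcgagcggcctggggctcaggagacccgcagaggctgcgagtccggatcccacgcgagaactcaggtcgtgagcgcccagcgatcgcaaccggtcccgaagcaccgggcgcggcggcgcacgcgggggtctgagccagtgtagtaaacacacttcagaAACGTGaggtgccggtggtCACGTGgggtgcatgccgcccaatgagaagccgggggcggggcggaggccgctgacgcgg
*Tef*, upstream start site, chr15:81802423-81802672, plus strand: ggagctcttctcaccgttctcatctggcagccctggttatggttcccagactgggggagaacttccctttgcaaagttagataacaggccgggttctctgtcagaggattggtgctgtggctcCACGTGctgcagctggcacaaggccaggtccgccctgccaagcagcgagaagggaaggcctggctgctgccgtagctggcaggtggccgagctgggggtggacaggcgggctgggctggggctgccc
*Tef*, downstream start site, chr15:81811164-81811413, plus strand: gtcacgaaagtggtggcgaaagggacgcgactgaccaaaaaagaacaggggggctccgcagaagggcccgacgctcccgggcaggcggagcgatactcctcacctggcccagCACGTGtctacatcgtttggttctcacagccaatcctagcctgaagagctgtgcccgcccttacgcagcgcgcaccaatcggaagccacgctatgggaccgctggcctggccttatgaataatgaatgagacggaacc
*Per3*, chr4:151044666-151044915, minus strand: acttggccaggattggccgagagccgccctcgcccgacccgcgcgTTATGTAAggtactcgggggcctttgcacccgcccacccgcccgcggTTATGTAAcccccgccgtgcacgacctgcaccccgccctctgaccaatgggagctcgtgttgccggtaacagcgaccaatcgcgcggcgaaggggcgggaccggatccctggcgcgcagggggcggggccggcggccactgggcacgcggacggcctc
*Arntl*, chr7:113207526-113207555, plus strand: agggaaggcagaaagTAGGTCAgggacgga

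The libraries were of similar depth, with 20296741 to 20625813 expected counts per sample. *Ptch1* had 517, 659 and 682 normalized counts in control replicates 1, 2 and 3 and 390, 445 and 471 in Ptch1Prrx1 replicates 1, 2 and 3 in these epithelial cells. It was thus lower in Ptch1Prrx1 samples without overlap (log2 fold change -0.51, adjusted p = 0.0401, edgeR), and the cause was not tested. The corneal keratin *Krt12* was at 37107 TPM or more, and the basal keratin *Krt5* at 23375 TPM or more, in every sample (TPM is a level scaled for gene length and for library depth), and all 8 listed epithelial markers were tested. Of these, *Tjp1* rose (log2 fold change 0.37, adjusted p = 0.0208, edgeR) and the other 7 did not pass, while 7.61% of all tested genes rose. *Pax6* was at 409 to 433 TPM in control samples and 302 to 386 TPM in Ptch1Prrx1 samples (adjusted p = 0.112, edgeR). Markers of keratocytes summed to 8.24 to 35.3 TPM in control samples and 6.90 to 9.77 TPM in Ptch1Prrx1 samples over the 9 of 10 listed genes with values. The highest sum was that of control replicate 3 alone, where *Col1a2* was at 25.98 TPM, and the other control samples were at 9.58 and 8.24 TPM, within the range of the Ptch1Prrx1 samples. The keratocyte gene *Kera* was too low to be tested, at 0.06, 0 and 0.07 TPM in control replicates 1, 2 and 3 and at 0 in all Ptch1Prrx1 samples. The 8 immune markers summed to 113 to 151 and 149 to 273 TPM in the respective groups. The highest sum was that of Ptch1Prrx1 replicate 1, where *S100a8* was at 78.8 TPM against 0 in all control samples, and the other Ptch1Prrx1 samples were at 149 and 166 TPM. *Itgam* was at 67.0 to 101 TPM in control and 99.5 to 129 TPM in Ptch1Prrx1 samples (adjusted p = 0.0759, edgeR), and the leukocyte gene *Ptprc* was at or below 0.20 TPM in every sample. Conjunctival markers, 6 of 7 with values, summed to 1384 to 2309 TPM in control samples and 2175 to 4667 TPM in Ptch1Prrx1 samples, highest in Ptch1Prrx1 replicate 1. The log2 fold changes of *Krt4*, *Krt19* and *Krt13* were 1.80, 1.46 and 0.68, with adjusted p of 0.0685, 0.0793 and 0.107 in edgeR. The mucin gene *Muc5b* was at or below 0.01 TPM in every sample, and the listed goblet cell mucin gene *Muc5ac* had no values. Endothelial and vessel markers summed to 24.0 to 27.6 and 25.5 to 30.01 TPM, and nerve markers to 76.6 to 86.8 and 81.3 to 96.2 TPM, in the respective groups. The part of these cell types in the clock gene values was not tested. In bulk samples, fewer cells expressing a gene and less RNA of it per cell cannot be told apart. Along the first principal component of all tested genes, Ptch1Prrx1 replicate 1 lay apart at 51.7, against 18.3 and 19.1 for the other Ptch1Prrx1 samples and -33.7 to -26.5 for the control samples.

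Clock genes were well expressed in the corneal epithelium, and their order of level was similar in both groups. In control samples *Nr1d1* had the highest mean level, 268 ± 49.8 TPM (SD, n = 3), followed by *Dbp* with 217 ± 71.3 and *Tef* with 160 ± 30.4 TPM. *Nr1d2*, *Per3*, *Clock*, *Arntl*, *Per2*, *Cry1* and *Npas2* followed, from 71.1 ± 4.45 TPM for *Nr1d2* to 7.45 ± 2.82 TPM for *Npas2* (SD, n = 3). The control samples separated *Tef* from *Nr1d2* and *Per3* from *Clock*, while the ranges of all other neighbours in this order overlapped. In Ptch1Prrx1 samples *Clock* ranked above *Per3*, and *Cry1* above *Per2*, each with overlapping ranges. Only *Arntl* and *Cry1* were separated as neighbours in that group.

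**Figure D1:**
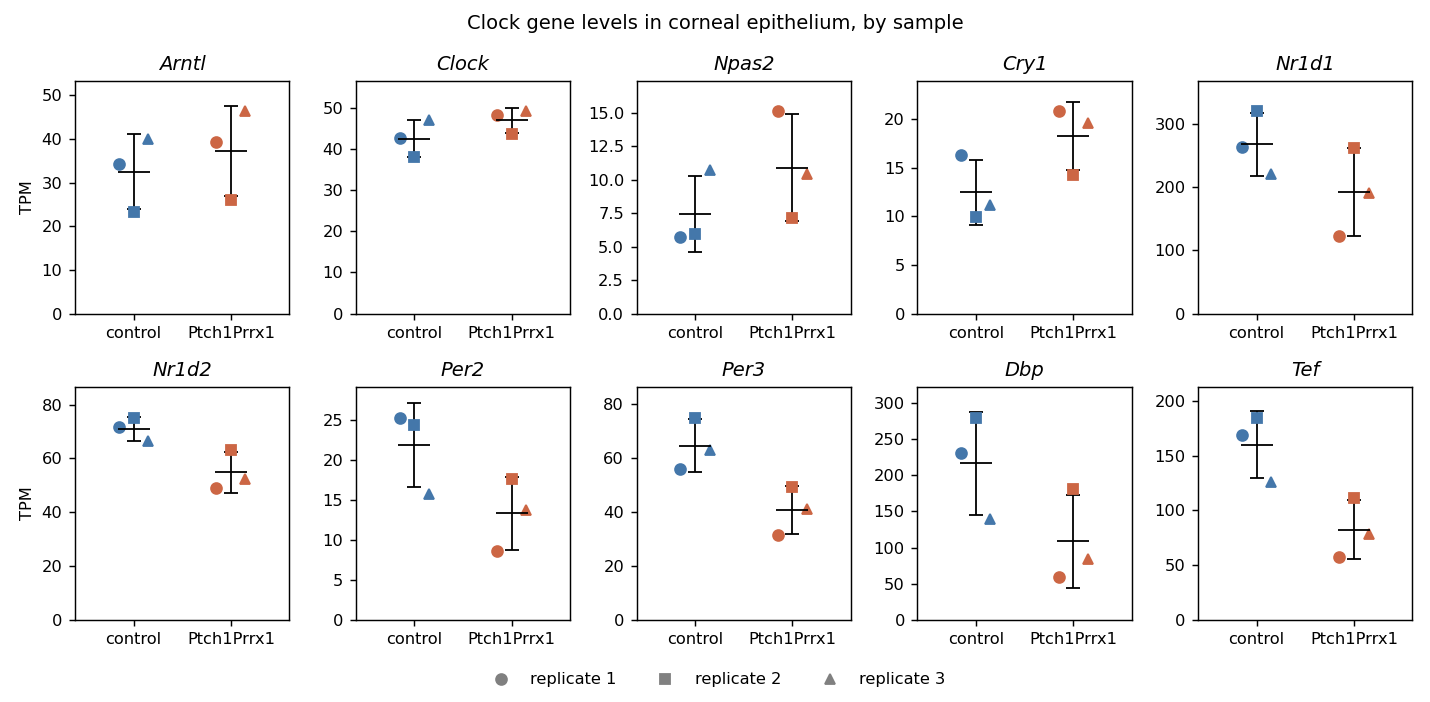
Levels of the 10 clock genes in TPM (vertical axes from 0, a scale for each gene) in control and Ptch1Prrx1 samples. Points are samples, with a shape for each replicate number, and black bars give the mean ± SD of 3 samples. The groups are apart on this scale for *Nr1d2*, *Per3* and *Tef*, with *Per3* at 55.7 to 74.9 TPM in control and 31.6 to 49.3 TPM in Ptch1Prrx1 samples, and they overlap for the other genes.

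The comparison of Ptch1Prrx1 with control epithelium was used to ask whether clock transcripts changed after *Ptch1* deletion beneath it, and whether its arms moved in opposite directions. All 4 genes of the activator arm had a log2 fold change above 0, and all 6 of the E-box arm had one below 0, while 48.5% of all 12999 tested genes had one above 0. None of the 10 genes passed both an adjusted p of 0.05 and a 2-fold change in edgeR's quasi-likelihood test, the call that 3.23% of all tested genes passed (2.34% higher and 0.892% lower in Ptch1Prrx1 samples). DESeq2 and limma-voom also called 0 of them, and 6 of the 10 had an unadjusted p under 0.05 in edgeR (all tested genes, 33.5%). Without the 2-fold minimum, 2 of the 10 passed, *Per3* and *Tef*, both lower in Ptch1Prrx1 samples, against 14.0% of all tested genes in either direction and 6.41% lower. With so few genes, this share is not set apart from the background. The normalized counts of the groups did not overlap for these 2 of the 10 genes, both lower, compared with 39.9% of all tested genes (19.7% higher and 20.3% lower). For 3 samples against 3, the smallest p of an exact permutation test is 0.10, and adjusted p values of the model across genes are therefore given.

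In the activator arm, *Arntl* encodes the obligate partner of the activating pair. It had 34.3, 23.2 and 40.0 TPM in control replicates 1, 2 and 3, and 39.4, 26.1 and 46.3 TPM in Ptch1Prrx1 replicates 1, 2 and 3. The groups overlapped widely, and replicate 2 was lowest in each group. The log2 fold change of *Arntl* was 0.23 with a standard error (SE) of 0.24 (adjusted p = 0.550, edgeR). *Clock*, which encodes its partner, varied least of the activators. It had 42.6, 37.9 and 47.1 TPM in control samples and 48.2, 43.5 and 49.1 TPM in Ptch1Prrx1 samples, in replicate order. The log2 fold change amounted to 0.19 (SE 0.095, adjusted p = 0.207, edgeR), with overlapping groups. *Npas2*, the paralog of *Clock*, had 5.73, 5.91 and 10.7 TPM in control samples and 15.1, 7.13 and 10.4 TPM in Ptch1Prrx1 samples. Control replicate 3 lay among the Ptch1Prrx1 samples, and Ptch1Prrx1 replicate 1 was highest. Its difference on the log2 scale was 0.60 (SE 0.33, adjusted p = 0.239, edgeR). *Cry1*, a repressor of the activating pair whose transcript peaks late, had 16.3, 9.96 and 11.2 TPM in control samples and 20.8, 14.3 and 19.6 TPM in Ptch1Prrx1 samples. Control replicate 1 exceeded Ptch1Prrx1 replicate 2, and the other samples followed the group. The log2 fold change of *Cry1* was 0.58 (SE 0.23, adjusted p = 0.120, edgeR).

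Among the repressors of the E-box arm, *Nr1d1* had 263, 320 and 221 TPM in control replicates 1, 2 and 3, and 123, 262 and 191 TPM in Ptch1Prrx1 replicates 1, 2 and 3. Ptch1Prrx1 replicate 2 lay above control replicate 3 and close to control replicate 1. On the log2 scale the difference was -0.45 (SE 0.25, adjusted p = 0.249, edgeR). *Nr1d2*, which encodes the second REV-ERB protein, had a narrower spread, with 71.6, 75.2 and 66.4 TPM in control samples and 48.9, 63.3 and 52.3 TPM in Ptch1Prrx1 samples. In these TPM values each control sample lay above each Ptch1Prrx1 sample, whereas the normalized counts used for the test overlapped. For *Nr1d2* the log2 fold change came to -0.34 (SE 0.11, adjusted p = 0.0720, edgeR). *Per2* had 25.3, 24.3 and 15.8 TPM in control samples and 8.55, 17.6 and 13.8 TPM in Ptch1Prrx1 samples. Control replicate 3 was below Ptch1Prrx1 replicate 2, and the log2 fold change was -0.68 (SE 0.28, adjusted p = 0.134, edgeR). *Per3*, whose protein modulates the PER and CRY repressor complex, fell to 64.4% of the control level. It had 55.7, 74.9 and 62.9 TPM in control samples and 31.6, 49.3 and 40.9 TPM in Ptch1Prrx1 samples, without overlap. *Per3* had a log2 fold change of -0.64 (SE 0.16, adjusted p = 0.0383, edgeR).

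The PAR bZIP output genes had the largest differences among the 10 genes. *Dbp* had 230, 280 and 139 TPM in control replicates 1, 2 and 3, and 59.8, 181 and 84.8 TPM in Ptch1Prrx1 replicates 1, 2 and 3. Ptch1Prrx1 replicate 2 exceeded control replicate 3, so the groups overlapped. The highest and lowest samples differed 2.01-fold within controls and 3.03-fold within Ptch1Prrx1 samples. The log2 fold change of *Dbp* was -0.97 (SE 0.41, adjusted p = 0.147, edgeR), larger than that of *Per3* but with a wider error. *Tef* fell to 52.8% of the control level. It had 169, 185 and 126 TPM in control samples and 57.7, 111 and 78.9 TPM in Ptch1Prrx1 samples. Each control sample lay above each Ptch1Prrx1 sample. The log2 fold change of *Tef* was -0.92 (SE 0.23, adjusted p = 0.0415, edgeR). The results of *Per3* and *Tef* depended on single samples. The adjusted p exceeded 0.05 without any single control sample and without Ptch1Prrx1 replicate 1 or 3, to between 0.0635 and 0.137 for *Per3* and between 0.0516 and 0.145 for *Tef*. Without Ptch1Prrx1 replicate 2 the adjusted p was 0.0272 for *Per3* and 0.0245 for *Tef* (log2 fold changes of -0.80 and -1.20, edgeR). In that fit 4 of the 10 genes passed, against 1045 of all 13200 tested genes, and the log2 fold change of *Dbp* was -1.57 (adjusted p = 0.0369, edgeR).

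**Figure D2:**
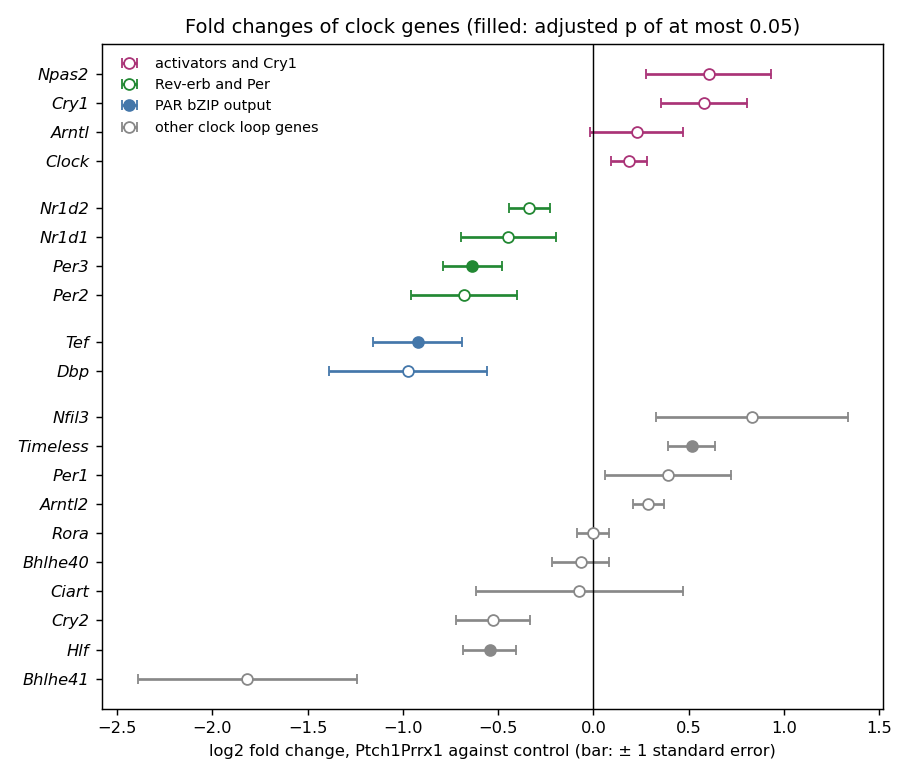
Log2 fold changes (horizontal axis, Ptch1Prrx1 against control) of the 10 clock genes and 10 other clock loop genes, with bars of 1 standard error from edgeR. Filled points passed an adjusted p of 0.05. The activator arm lies above 0, from 0.19 for *Clock* to 0.60 for *Npas2*, and the E-box arm below 0, from -0.34 for *Nr1d2* to -0.97 for *Dbp*.

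The arms were then set against each other within each sample, which removes the scaling between libraries. The mean of the activator arm was 5.15 ± 0.27 log2 CPM (SD, n = 3) in control samples and 5.55 ± 0.34 in Ptch1Prrx1 samples. The mean of the E-box arm was 7.40 ± 0.28 log2 CPM in control samples and 6.70 ± 0.45 in Ptch1Prrx1 samples (SD, n = 3). The difference between the arms, activator minus E-box, was -2.24, -2.77 and -1.72 on the log2 scale in control replicates 1, 2 and 3, and -0.456, -2.00 and -0.999 in Ptch1Prrx1 replicates 1, 2 and 3. Ptch1Prrx1 replicate 2 lay between the control samples, and Ptch1Prrx1 replicates 1 and 3 lay above all of them. The group means differed by 1.10 on the log2 scale, against a spread of 0.67 between samples of the same group. No test was made of this score, since its genes were chosen with results known. Leaving out single samples gave 0.75 (without Ptch1Prrx1 replicate 1) to 1.52 (without Ptch1Prrx1 replicate 2). The ratio of *Arntl* to *Dbp*, taken as a difference in log2 CPM, ran in the same sample order, from -2.90 in control replicate 2 to 0.08 in Ptch1Prrx1 replicate 1, except that Ptch1Prrx1 replicate 2 (-2.12) was just below control replicate 1 (-2.07).

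**Figure D3:**
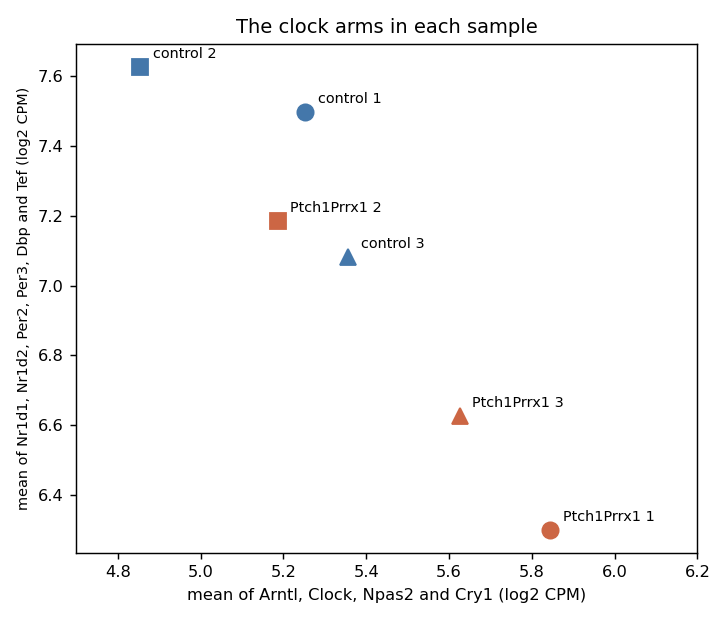
Mean log2 CPM of the activator arm (horizontal axis) and of the E-box arm (vertical axis) in each of the 6 samples, with colors for groups and shapes for replicate numbers. The samples form a falling band from control replicate 2 at the upper left (4.85 and 7.63) to Ptch1Prrx1 replicate 1 at the lower right (5.84 and 6.30), and Ptch1Prrx1 replicate 2 (5.19 and 7.19) lies among the control samples.

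The signs of the correlations among samples of the same group also followed the arms, as a description. After the group mean of each gene was subtracted, the deviations of the 6 samples were positively correlated for 21 of 21 pairs of genes within an arm (median r = 0.85) and negatively for 24 of 24 pairs from different arms (median r = -0.82). These values describe 6 samples with 2 group means removed, the pairs share the same libraries, and no test was made. The arms were chosen with results known, and the share of such signs among pairs of other genes was not determined. The counts of pairs are therefore no separate support for an opposition of the arms. *Dbp* and *Tef* followed each other most closely within the E-box arm (r = 0.99), and *Npas2* and *Per2* opposed each other most closely (r = -0.995). *Cry1* was the loosest member, with r = -0.22 against *Per2* and 0.29 with *Npas2*. With each sample left out in turn, the signs held for at least 20 of the 21 pairs within arms and at least 20 of the 24 pairs between arms, in a check chosen after seeing the data. Without Ptch1Prrx1 replicate 2 the counts were 20 and 20, without Ptch1Prrx1 replicate 1 they were 20 and 23, and without any other sample all signs held. The spread of the 10 genes within groups was wide compared with other genes. The median of their SD of log2 CPM within groups stood at percentile 88.4 of all tested genes, with *Dbp* at 96.5, *Npas2* at 93.5 and *Per2* at 91.7, and *Clock* lowest at 46.2.

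**Figure D4:**
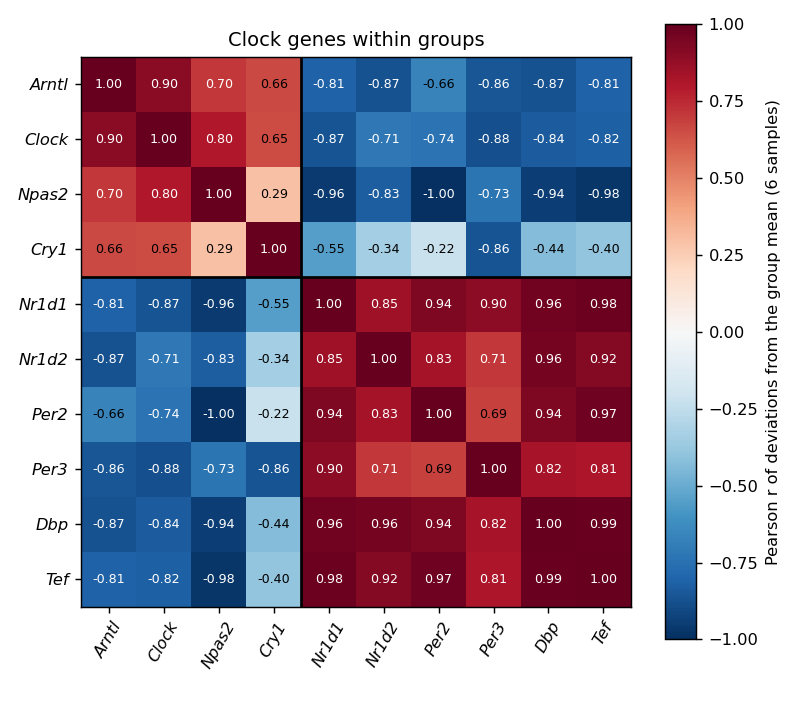
Pearson r between clock genes over the 6 samples after the group mean of each gene was removed, from -1 (blue) to 1 (red), with black lines between the arms. All 21 pairs within an arm are above 0 and all 24 pairs from different arms are below 0, and the palest cells are those of *Cry1*.

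The other genes of the clock loop were taken from a list of 12, of which 11 were tested. *Hlf*, the remaining PAR bZIP gene, fell, with 319, 326 and 292 TPM in control samples and 155, 229 and 240 TPM in Ptch1Prrx1 samples (log2 fold change -0.54, adjusted p = 0.0421, edgeR). *Timeless*, which also acts in DNA replication, rose, with a log2 fold change of 0.52 (adjusted p = 0.0364, edgeR). The other 9 did not pass, and among all tested genes 14.0% passed in either direction. The median log2 fold change of the list was -0.07, compared with -0.0099 for all tested genes. *Bhlhe41*, which encodes the E-box repressor DEC2, had the largest difference of the list, with 7.84, 9.05 and 3.74 TPM in control samples and 0.63, 3.70 and 1.45 TPM in Ptch1Prrx1 samples. In TPM the highest Ptch1Prrx1 sample was just below the lowest control sample, and the normalized counts overlapped (log2 fold change -1.82, SE 0.58, adjusted p = 0.0726, edgeR). *Cry2*, the paralog of *Cry1*, had a log2 fold change of -0.53 (adjusted p = 0.106, edgeR), opposite in sign to *Cry1*. The nuclear receptor gene *Rora* (-0.0025), which activates through ROR elements, the DEC1 gene *Bhlhe40* (-0.07) and the D-box repressor gene *Nfil3* (0.83) did not pass, by their log2 fold changes in edgeR. *Nfil3* had only 6 to 38 counts per sample. The *Arntl* paralog *Arntl2* did not pass either (log2 fold change 0.29, adjusted p = 0.0545, edgeR), although its normalized counts were higher in Ptch1Prrx1 samples without overlap. Within groups, deviations from the group mean were set against the difference between the arms, as a description over the 6 samples. They followed it closely and inversely for *Bhlhe41* (r = -0.97) and *Cry2* (r = -0.96), and not for *Timeless* (r = -0.08). *Arntl2* had r = -0.80, although the group means of *Arntl2* and of the arm difference were both higher in Ptch1Prrx1 samples. High values of r were not particular to clock loop genes. Outside that list, r was -0.96 for *Usp2*, 0.94 for *Fbxw11* and -0.91 for the immediate early gene *Egr1*, and -0.02 for *Dusp1*. *Rorb* was at or below 0.15 TPM in every sample and was not tested.

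*Per1* and *Ciart*, also E-box genes by background knowledge, did not pass the test. *Per1*, which is also induced directly by cAMP and glucocorticoid signals, had 92.0, 53.7 and 35.7 TPM in control samples and 59.8, 89.3 and 85.2 TPM in Ptch1Prrx1 samples. For *Per1* the log2 fold change came to 0.39 (SE 0.33, adjusted p = 0.441, edgeR), positive where those of *Per2* and *Per3* were negative, and with overlapping groups. *Ciart*, which encodes the repressor CHRONO, had 38.0, 29.1 and 9.19 TPM in control samples and 15.5, 40.0 and 16.6 TPM in Ptch1Prrx1 samples. It was low in control replicate 3 and high in Ptch1Prrx1 replicate 2, as were *Dbp* and *Per2* within their groups, but its group means were alike (log2 fold change -0.07, SE 0.54, adjusted p = 0.939, edgeR). Immediate early genes, a class to which *Per1* is often assigned, were higher in Ptch1Prrx1 samples. Of 17 tested genes of that list, 15 rose and 0 fell at an adjusted p of 0.05 in edgeR. Among all tested genes, 7.61% rose and 6.41% fell at that threshold. The summed level of the list was 1366 to 1714 TPM in control samples and 3377 to 4068 TPM in Ptch1Prrx1 samples. The 6 with the smallest p were *Btg2*, *Nr4a1*, *Jun*, *Zfp36*, *Dusp1* and *Fosb*, with log2 fold changes of 1.47 for *Zfp36* to 3.21 for *Nr4a1*. The part of this list in the clock gene values was not tested.

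Enzymes and ligases that modify clock proteins showed small differences. Of 12 tested genes of this list, the kinase gene *Gsk3b* (log2 fold change 0.26, adjusted p = 0.0331, edgeR) and the ubiquitin ligase gene *Fbxw11* (0.28, adjusted p = 0.0304) rose, and 0 fell. *Usp2*, a deubiquitinase gene whose transcript cycles in many tissues, had 20.6, 28.1 and 19.8 TPM in control samples and 12.3, 18.8 and 14.1 TPM in Ptch1Prrx1 samples. The groups did not overlap, but the adjusted p was 0.0771 (log2 fold change -0.57, edgeR). The casein kinase genes *Csnk1d* and *Csnk1e*, which phosphorylate PER proteins, had log2 fold changes of 0.17 and 0.27 with adjusted p of 0.0887 and 0.0630 in edgeR. Of 8 widely rhythmic output genes, *Klf10* and the transferrin receptor gene *Tfrc* rose, with log2 fold changes of 0.78 and 1.10 (adjusted p = 0.0156 and 0.0340, edgeR), and 0 fell. The cell cycle kinase gene *Wee1*, a known E-box target, had a log2 fold change of 0.11 (adjusted p = 0.580, edgeR). Of 8 glucocorticoid-responsive genes, a list that also holds *Per1*, *Sgk1* and *Errfi1* rose (log2 fold changes of 0.65 and 1.23, adjusted p = 0.0141 and 0.00717, edgeR) and 0 fell. *Tsc22d3* and *Fkbp5* of the same list had log2 fold changes of -0.75 and -0.95 with adjusted p of 0.0706 and 0.0550 in edgeR, so the list did not move one way. Over all tested genes, 7.61% rose and 6.41% fell by the same threshold.

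The genes most like *Arntl* and *Dbp* across the 6 samples were sought among 11903 other genes with a mean of at least 1 TPM. For *Dbp*, the highest Pearson r belonged to *Ppcs* (1.00), *Orc5* (0.99), *Hspb1* (0.99), *Snf8* (0.98) and *Bhlhe41* (0.98), the last of which is a clock gene. For *Arntl* it belonged to *Ppil4* (0.98), *Ddx59* (0.97), *Snx13* (0.96), *Sox7* (0.96) and *Nrtn* (0.96), none of which is a listed clock gene. Over 6 samples, 263 genes had r above 0.9 with *Dbp* and 40 with *Arntl*. None of these 10 genes passed an adjusted p of 0.05 in edgeR.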

How the data were processed

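The authors aligned clean reads with Bowtie2 2.2.5 and quantified genes with RSEM 1.2.12. The submitters' processing notes list the build mm9. The deposited expected counts are RSEM estimates per gene without scaling, and the deposited TPM values are scaled by the authors for gene length and depth. The table also holds FPKM values and group means, which were not used here. The number of columns of other samples was 0. Expected counts were rounded to whole numbers, and 12999 genes that passed filterByExpr were tested with edgeR 4.0.16 in R 4.3.3 (quasi-likelihood test, TMM factors, Benjamini-Hochberg adjustment over all tested genes). Normalized counts were obtained by dividing each count by its TMM-scaled library size and multiplying by the mean of those sizes, and log2 CPM used a prior count of 2. The standard error of a fold change was derived from its size and the F statistic of the test. A call required an adjusted p of at most 0.05 and a log2 fold change of 1 or more in size, the thresholds of the authors.

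Replicates were further apart than counting noise allows (chi-square per degree of freedom of 10.2 to 38.4) and were counted as separate replicates. Depth limits little for these genes, the lowest of which, *Npas2*, had 223 counts or more in each sample, and intervals of counting error are not given. The sources describe 3 biological replicates per group, and p values measure only the spread between these samples. The clock genes, their arms and the other lists were chosen with earlier results of these data known, as were the markers. Named genes were all 10 clock genes, all tested genes of the other clock loop list, members of other lists that passed an adjusted p of 0.05 (at most 6 per list), and the 5 genes most like *Arntl* and *Dbp*. *Usp2*, *Wee1*, *Csnk1d*, *Csnk1e*, *Tsc22d3*, *Fkbp5*, *Egr1*, *Krt4*, *Krt13*, *Krt19*, *Pax6*, *Tjp1* and the marker genes given by level were named after their values were seen. A gene of the other clock loop list and an immune marker are counted in their lists and not reported here by name. Alternatives were DESeq2 1.42.0, limma-voom (limma 3.58.1), other size factors and count filters, limma on log2-transformed TPM (pseudocounts 1 and 0.1, mean TPM of at least 1), a replicate block and leaving out each sample. On simulated data for this comparison with 200 of 12999 genes changed by a log2 fold change of 1.5, 97.0% of those genes were found again by edgeR. The log2 fold changes of the 10 clock genes were smaller, from -0.97 for *Dbp* to 0.60 for *Npas2*. This share therefore does not tell how often changes of their size would be found.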

Additional observations from a re-analysis of the deposited data

How the results depend on the processing

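The direction of each of the 10 log2 fold changes was kept under all 15 alternatives set out for them. For *Arntl* the log2 fold change was small against its SE in some of them. It was 0.033 (SE 0.22) without control replicate 2 and 0.080 (SE 0.27) without Ptch1Prrx1 replicate 3. The number of clock genes past an adjusted p of 0.05 moved from 2 to 4 with DESeq2 (adding *Nr1d2* and *Per2*). It also moved to 4 with the replicate number as a block in edgeR, where *Cry1* (adjusted p = 0.0244) and *Nr1d2* (0.0369) were added. Of all 12999 tested genes, 2520 passed with DESeq2 and 1892 with the block, against 1822 in the main fit. The number of clock genes ranged from 0 to 4 when 1 sample was left out. It was 4 only without Ptch1Prrx1 replicate 2, where 1045 of all 13200 tested genes passed. The number of clock genes that also passed a 2-fold change stayed at 0, except without that sample, where it was 2 (range without 1 sample, 0 to 2). In that fit 395 of all 13200 tested genes passed both. For all genes, 420 calls became 234 with limma on log2(TPM + 1) and 59 to 430 without 1 sample, lowest without control replicate 2. Genes past an adjusted p of 0.05 without a fold minimum numbered 1822, and 93 without control replicate 2. The cause was not tested, beyond the smaller number of samples when 1 is left out. The difference between the arms ranged from 0.75 to 1.52 over all 16 alternatives, and was 0.84 with *Cry1* moved to the E-box arm. Over all tested genes the replicate numbers did not pair the samples: same-numbered deviations had correlations of 0.11, -0.01 and 0.02. This does not hold for each clock gene. With the block, the SE was 0.070 for *Arntl*, 0.064 for *Per3* and 0.10 for *Cry1*, against 0.24, 0.16 and 0.23 without it. For *Npas2* (0.29 against 0.33) and *Per2* (0.26 against 0.28) it changed little. The difference between the arms was lowest in replicate 2 of each group. Whether samples of the same number were collected together was not tested.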
